A study of Mus musculus with 6 samples.

Results

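The genes of fatty acid oxidation and ketogenesis were compared between colonic epithelial cells of mice that had lost the glucocorticoid receptor gene Nr3c1 in the intestinal epithelium and those of wild-type mice. The list holds 37 named genes of mitochondrial and peroxisomal fatty acid oxidation, ketone body metabolism and the response to the nuclear receptor PPAR alpha, found by symbol among the 23725 genes measured, and all 37 passed the filter on low values. Lower expression in the knockout was the common outcome: 24 of the 37 fell and 4 rose (Acsl5, Slc25a20, Acadl and Creb3l3). The other 9 did not pass the test. The shares of all genes tested were 15.4% lower and 15.0% higher. Of the 24 lowered genes 16, and of the 4 raised genes 4, kept their call whichever library was left out. In a fit that also adjusted for marker genes of immune and stromal cells, 0 of the 37 passed. That fit called 0.491% of all genes lower and 0.374% higher, and the marker level ran together with genotype. Genes that fell were found at fatty acid entry (Cpt1a), at every step of the mitochondrial spiral and among the electron transfer flavoproteins. On the same route Slc25a20 and Acadl rose. The largest fall was that of Pdk4, which stood at 3.41% of its wild-type mean.

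The knockout group was 3 libraries of genotype B6-Cg-Nr3c1-Vil-Cre/ERT2 (Nr3c1IEC-/-), in which a tamoxifen-activated Cre recombinase is driven by the villin promoter, active in intestinal epithelium. The wild-type group was 3 libraries labelled wild type, and both groups were on the C57BL/6J background. All mice received tamoxifen intraperitoneally on 5 consecutive days, and colonic epithelial cells were enriched on a Percoll gradient 7 days after the first injection. Neither the deleted part of Nr3c1, the age of the mice nor the presence of the Cre transgene in wild-type mice is given by the labels, so an effect of Cre with tamoxifen and that of receptor loss cannot be told apart. Values are normalized reads, that is, reads per gene divided by 1 size factor per library, and each group has n = 3.

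Fatty acids are activated to acyl-CoA, carried into mitochondria as acylcarnitines, and shortened there in cycles of dehydrogenation, hydration, a second dehydrogenation and thiolysis. The acetyl-CoA released feeds the citric acid cycle or ketone body synthesis. Colonocytes are known for burning short-chain fatty acids, above all butyrate, which enter the same spiral at its short-chain end. PPAR alpha switches on many of these genes, and glucocorticoids are known in liver to raise several of them during fasting.

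The check of the targeted gene went against 1 label. Nr3c1 had 144.7, 123.1 and 174.7 normalized reads in the knockout libraries, against 1119.8, 967.1 and 196.7 in the wild-type libraries. The library labelled wild type replicate 3 was thus close to the knockout range at this gene, and every direction given here counts it as labelled. The log2 change of Nr3c1 was -2.03 (SE 0.60, limma adjusted p = 0.0372), and a two-sided exact permutation test gave p = 0.1, the smallest that 3 against 3 libraries allow. With wild type replicate 3 left out the limma adjusted p was 0.000731, and without any one of the other 5 libraries it was 0.0631 to 0.125, so the call was then lost. Recovered reads numbered 10089313 to 12030844 per library.

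The 7 epithelial markers were present in all libraries and summed to 282046, 275601 and 248112 normalized reads in the knockout, against 242389, 236740 and 277510 in wild type, with 0 lower, also unadjusted and with edgeR, and 1 higher. Markers of mature colonocytes moved both ways, 4 of 12 lower and 4 higher, with sums of 202236, 321405 and 221108 in the knockout and 288712, 324729 and 282361 in wild type. Those lower were Car1, Guca2a, Cyp2c55 and Phgr1, at 27.1%, 18.6%, 1.87% and 34.8% of their wild-type means, and those higher were Krt20, Lypd8, Ceacam20 and Saa1, at 197%, 195%, 190% and 239%. Of 7 goblet cell markers 1 fell, Muc2, to 34.1% of its wild-type mean, and the list summed to 49623, 80203 and 61722 in the knockout and 87779, 84448 and 84154 in wild type. Of all genes tested, 15.4% were called lower and 15.0% higher. The 14.3% of epithelial markers that rose and of goblet markers that fell were near these shares. Cell type markers named with values, other than those at 0 in all libraries, were chosen after their values were seen. The part of these marker changes in the fall of the oxidation genes was not tested.

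Of the markers of other cells, those of myeloid cells stood out: 10 of 13 rose (15.0% of all genes tested). They summed to 8744, 3614 and 3427 normalized reads in knockout libraries, against 653, 1036 and 1280 in wild-type libraries. S100a8 (2129.1, 953.0 and 598.6) and S100a9 (2330.3, 859.8 and 377.1) made up a large part of the knockout sums. Cd68, Adgre1 and Lyz2 overlapped between the groups and did not pass (limma adjusted p 0.127 to 0.216). Sums of stromal markers overlapped between the groups, at 2706, 870 and 1314 in the knockout and 633, 904 and 1186 in wild type. Of the 8 tested, 1 rose, and the groups overlapped for 6. Sums of lymphoid markers also overlapped, at 262, 87 and 278 in the knockout and 77, 46 and 152 in wild type, and the 3 tested did not pass (limma adjusted p 0.132 to 0.530). Taking these 3 lists as 1 (37 genes), 11 of the 24 tested rose, 10 of them myeloid, and 0 fell with limma and with edgeR (1 lower at an unadjusted p under 0.05); the sums were 11711, 4571 and 5019 in the knockout and 1362, 1986 and 2618 in wild type. Of the 7 adipocyte markers, Adipoq, Plin1, Lep and Cfd were at 0 in all 6 libraries, and Retn was at 0 in 4 and at most 1.1 in the others. Cidec was at 106.9 to 186.2 in the knockout and 147.5 to 185.7 in wild type, and Pck1, also a gene of glucose synthesis, fell to 59.8 to 448.0 in the knockout, against 1740.4 to 3575.0 in wild type (adjusted p = 0.00713). Of 6 tested markers of liver and small intestine 2 rose, with sums of 1671, 2262 and 2336 in the knockout and 1541, 1397 and 1108 in wild type. In bulk RNA, fewer cells of a type and less RNA per cell cannot be told apart.

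Changes are log2(value + 1) differences, knockout minus wild type, tested with limma over 12837 genes with Benjamini-Hochberg adjustment at a threshold of 0.05; unless another tool is named, every adjusted p comes from that fit. Among all genes tested, 15.4% were called lower and 15.0% higher, against 24 (64.9%) and 4 (10.8%) of the 37. The median change was -0.65 for the 37 genes and 0.01 for all genes tested. The 3 knockout libraries lay wholly below the 3 wild-type libraries for 27 of the 37 genes (25.5% of all genes) and wholly above for 5 (25.2% of all genes). A fit with the immune and stromal marker level as a covariate called 0 of the 37 genes in either direction (7 lower and 5 higher at an unadjusted p under 0.05), with a lowest adjusted p of 0.0636, a median change of -0.30 and all 24 lowered genes still below 0. Among all genes, that fit called 0.491% lower and 0.374% higher. The edgeR quasi-likelihood test on the recovered reads called 23 of the 37 lower and 4 higher, and 15.6% of all genes lower and 14.7% higher. Marker level and genotype run together in these libraries, with mean log2 marker levels of 5.98, 4.65 and 5.37 in the knockout and 3.53, 3.88 and 4.39 in wild type.

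**Figure D1:**
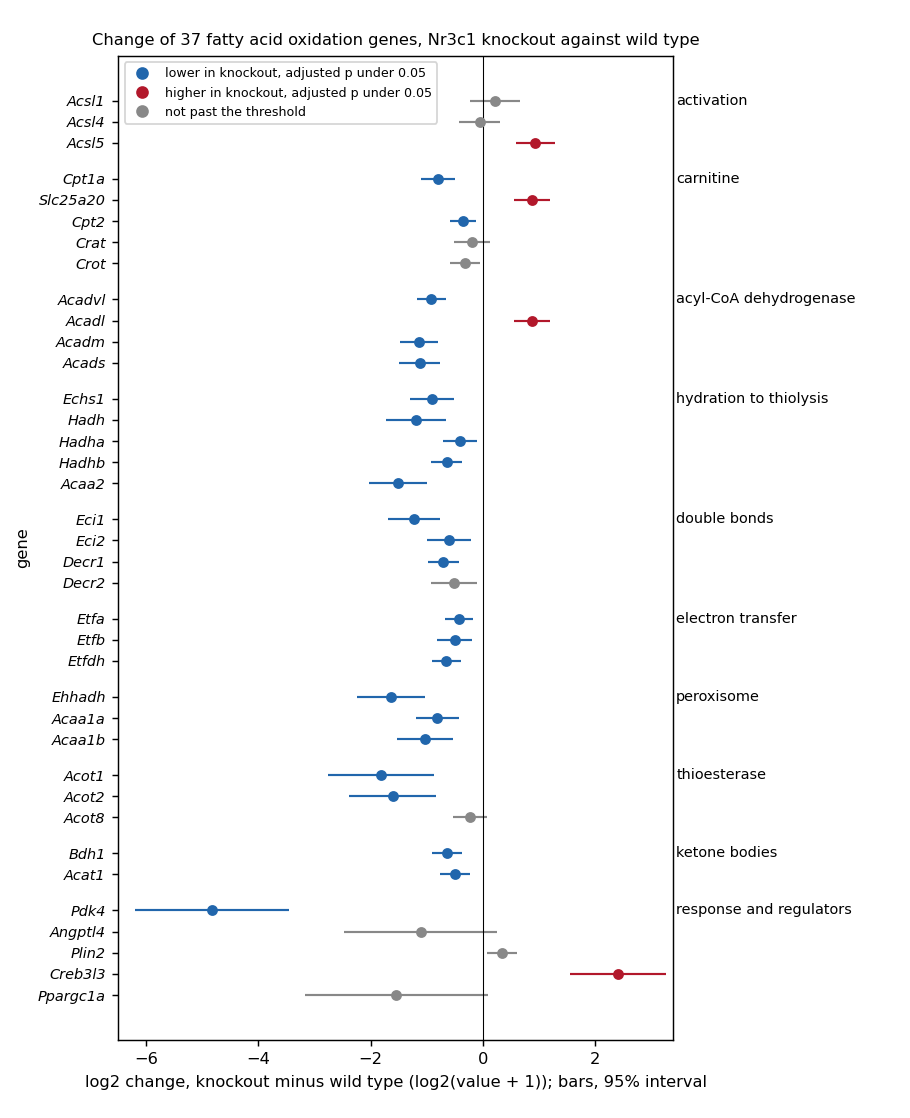
Log2 change of each of the 37 genes, knockout minus wild type, on the log2(value + 1) scale, with its 95% interval, ordered by step of the pathway (n = 3 libraries each). Blue points (24) were lower and red points (4) higher at an adjusted p under 0.05, and grey points (9) did not pass; Pdk4 lies at -4.82 and Creb3l3 at 2.41.

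Of the 3 genes of activation, the first step, 1 rose and none was called lower. Acsl5, a long-chain acyl-CoA synthetase of the intestine, had 2733.9, 2355.0 and 2134.7 normalized reads in the knockout, against 1262.0, 1065.9 and 1446.2 in wild type. The groups did not overlap, and the change was 0.94 (SE 0.15, adjusted p = 0.00429). Acsl1, the main synthetase of muscle, fat and liver, averaged 277 ± 56.2 in the knockout and 237 ± 39.2 in wild type (SD), with overlapping groups and an interval for the change of -0.24 to 0.67 (adjusted p = 0.418). Acsl4, which prefers arachidonic acid, averaged 216 ± 38.4 in the knockout and 222 ± 13.5 in wild type, with an interval of -0.42 to 0.31 (adjusted p = 0.819). Per kilobase of transcript, Acsl5 was the most abundant of the 3 synthetases in every library, at 503 to 644 normalized reads per kilobase in the knockout and 251 to 341 in wild type. Acsl1 followed at 56.2 to 85.0 in the knockout and 49.3 to 67.5 in wild type, and Acsl4 at 36.5 to 49.4 in the knockout and 39.4 to 44.5 in wild type. Acsl3, a synthetase gene outside the 37 and named after its values were seen, fell without overlap (change -0.88, adjusted p = 0.00953). Per kilobase, Acsl3 stood at 260 to 394 in the knockout, below Acsl5, and at 598 to 693 in wild type, above Acsl5.

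The carnitine shuttle moved in both directions. Cpt1a, the outer-membrane carnitine palmitoyltransferase that controls entry of long-chain fatty acids, had 2327.2, 2949.9 and 2757.1 normalized reads in the knockout, against 4895.1, 4875.5 and 4146.5 in wild type. Every knockout library lay below every wild-type library, and the change was -0.80 (SE 0.13, adjusted p = 0.00507). Slc25a20, the carnitine-acylcarnitine translocase of the inner membrane, had 3374.4, 4452.3 and 3281.2 in the knockout, against 2001.8, 1923.4 and 2053.7 in wild type. It rose, with no overlap and a change of 0.88 (SE 0.14, adjusted p = 0.00419). Cpt2, which regenerates acyl-CoA inside the matrix, had 1123.8, 1196.1 and 1054.9 in the knockout, against 1511.4, 1445.3 and 1372.4 in wild type, a smaller fall (change -0.36, adjusted p = 0.0310). The call of Cpt2 was lost on leaving out wild type replicate 1, 2 or 3 or knockout replicate 3, with adjusted p up to 0.119. Crot, the peroxisomal carnitine octanoyltransferase, averaged 435 ± 18.5 in the knockout and 545 ± 58.1 in wild type and missed the threshold although its groups did not overlap (adjusted p = 0.0759). Crat, the carnitine acetyltransferase, averaged 589 ± 84.2 in the knockout and 668 ± 66.9 in wild type, and its groups overlapped (adjusted p = 0.328).

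**Figure D2:**
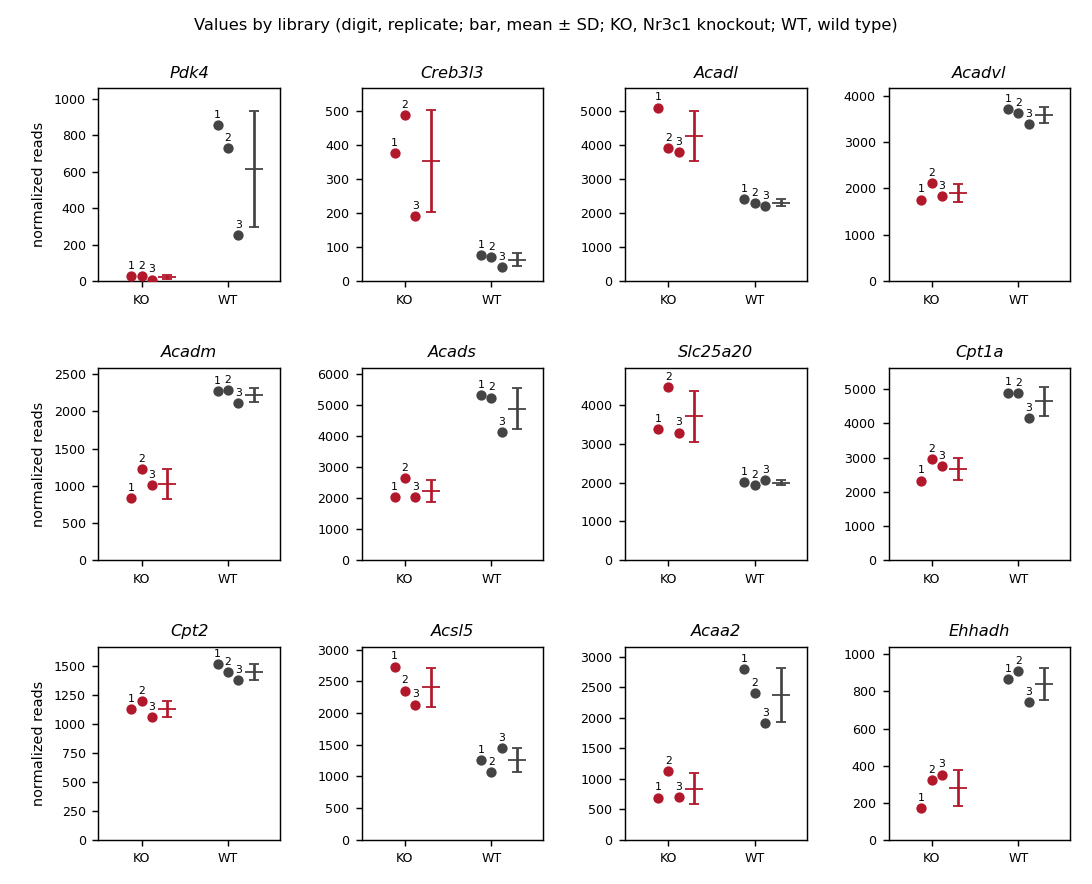
Normalized reads of 12 of the genes in each library (points, numbered by replicate; red, Nr3c1 knockout; grey, wild type), with mean and SD to the right of each group. Acadl, Slc25a20, Acsl5 and Creb3l3 are higher in all 3 knockout libraries and the other 8 genes lower, and wild type replicate 3 is the lowest wild-type library for Pdk4 at 253.2.

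The 4 acyl-CoA dehydrogenases, which take fatty acids of different chain length through the first oxidation, did not change alike. Acadl, the long-chain dehydrogenase, rose: it had 5091.5, 3893.6 and 3790.1 normalized reads in the knockout, against 2405.1, 2283.3 and 2211.2 in wild type (change 0.88, SE 0.14, adjusted p = 0.00419). Its groups were well apart. Acadvl, the very-long-chain enzyme of the inner membrane, had 1759.0, 2120.1 and 1826.3 in the knockout, against 3717.0, 3627.8 and 3386.0 in wild type (change -0.91, SE 0.11, adjusted p = 0.00177). Acadm, the medium-chain enzyme, had 834.4, 1227.2 and 1004.3 in the knockout, against 2268.2, 2281.3 and 2105.6 in wild type (change -1.13, SE 0.15, adjusted p = 0.00224). Acads, the short-chain enzyme that acts on butyryl-CoA, had 2035.8, 2661.3 and 2052.6 in the knockout, against 5319.6, 5248.1 and 4124.6 in wild type (change -1.12, SE 0.16, adjusted p = 0.00282). In these last 3 genes every knockout library was below every wild-type library. Per kilobase, the order within the family differed between the groups. In the knockout Acadl was first, with levels of 1978 to 2657 normalized reads per kilobase, then Acads with 1089 to 1423, Acadvl with 811 to 978 and Acadm with 408 to 599, and no neighbours in that order overlapped. In wild type Acads was first with 2206 to 2845, then Acadvl with 1562 to 1714, Acadl with 1154 to 1255 and Acadm with 1029 to 1114, again without overlap of neighbours.

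The genes that complete each turn of the spiral all fell, 5 of 5. Acaa2, the mitochondrial 3-ketoacyl-CoA thiolase, had 690.8, 1127.8 and 699.8 normalized reads in the knockout, against 2793.6, 2402.6 and 1906.1 in wild type (change -1.52, SE 0.22, adjusted p = 0.00336). No library of one group reached the other. Hadh, the short-chain hydroxyacyl-CoA dehydrogenase, had 1631.1, 3108.3 and 2422.0 in the knockout, against 5445.9, 5875.9 and 4544.5 in wild type (change -1.19, adjusted p = 0.00878). Echs1, the short-chain enoyl-CoA hydratase, had 970.7, 1481.7 and 1447.3 in the knockout, against 2443.3, 2424.1 and 2319.6 in wild type (change -0.91, adjusted p = 0.00755).

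Hadha and Hadhb encode the alpha and beta subunits of the trifunctional protein, which handles long-chain intermediates, and they lie head to head on GRCm38 chromosome 5 with start sites 273 bases apart. Hadhb had 1861.8, 2183.2 and 1787.2 normalized reads in the knockout, against 3200.1, 3173.1 and 2741.2 in wild type (change -0.65, adjusted p = 0.00796). Hadha had 3403.8, 4185.4 and 3413.0 in the knockout, against 5008.7, 5106.3 and 4395.1 in wild type (change -0.40, adjusted p = 0.0487). Both subunit genes were lower without overlap, but the call of Hadha stood close to the threshold. It was lost with edgeR's quasi-likelihood test (adjusted p = 0.0525) and on leaving out any library except knockout replicate 2 (adjusted p up to 0.161).

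Unsaturated fatty acids need further isomerases and reductases, and 3 of these 4 genes fell. Eci1, a mitochondrial enoyl-CoA isomerase, had 299.8, 355.9 and 264.4 normalized reads in the knockout, against 845.9, 801.8 and 533.7 in wild type (change -1.22, adjusted p = 0.00485). Eci2, the isomerase found in peroxisomes and mitochondria, had 341.7, 468.7 and 352.3 in the knockout, against 669.7, 595.5 and 497.2 in wild type (change -0.60, adjusted p = 0.0312). The groups did not overlap for either isomerase, and Eci2 lost its call without wild type replicate 1 or 2 or knockout replicate 1 or 3 (adjusted p up to 0.115). Decr1, the mitochondrial dienoyl-CoA reductase, averaged 728 ± 74.9 in the knockout and 1188 ± 109 in wild type (change -0.71, adjusted p = 0.00569). Decr2, the peroxisomal reductase, averaged 441 ± 103 in the knockout and 621 ± 28.2 in wild type and did not pass (adjusted p = 0.0596), except without knockout replicate 2 (adjusted p = 0.0289).

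Electrons from the dehydrogenases pass to the electron transfer flavoprotein (Etfa and Etfb) and its ubiquinone oxidoreductase (Etfdh), and all 3 genes fell. Etfdh averaged 1125 ± 129 in the knockout and 1757 ± 55.1 in wild type (change -0.65, adjusted p = 0.00603). Etfa averaged 1874 ± 77.6 in the knockout and 2522 ± 257 in wild type (change -0.42, adjusted p = 0.0246). Etfb averaged 1492 ± 187 in the knockout and 2103 ± 228 in wild type (change -0.50, adjusted p = 0.0276). The groups were apart for all 3, and the calls of Etfa and Etfb were lost without wild type replicate 1 or 2 or knockout replicate 3, with adjusted p up to 0.0999 for Etfa and 0.106 for Etfb.

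The peroxisomal members also fell, 3 of 3. Ehhadh, the bifunctional hydratase and dehydrogenase of the peroxisome and a classic PPAR alpha target, had 170.9, 322.8 and 351.3 normalized reads in the knockout, against 866.1, 907.4 and 744.1 in wild type (change -1.63, SE 0.26, adjusted p = 0.00455). Its highest knockout library was below its lowest wild-type library. The thiolases Acaa1a and Acaa1b averaged 1090 ± 189 and 472 ± 96.5 in the knockout, against 1911 ± 289 and 971 ± 227 in wild type, with changes of -0.81 (adjusted p = 0.0101) and -1.03 (adjusted p = 0.0113). Acaa1b lost its call without wild type replicate 1 (adjusted p = 0.0511).

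Thioesterases release free fatty acids from acyl-CoA. Acot1, the cytosolic enzyme, had 27.3, 57.9 and 27.7 normalized reads in the knockout, against 195.3, 133.0 and 77.4 in wild type (change -1.81, SE 0.41, adjusted p = 0.0150). Acot2, its mitochondrial relative, had 35.6, 66.2 and 37.2 in the knockout, against 191.0, 144.7 and 93.8 in wild type (change -1.61, SE 0.33, adjusted p = 0.0111). Both fell without overlap, and Acot1 lost its call without wild type replicate 1 or 2 (adjusted p up to 0.0585). Acot8, a peroxisomal thioesterase, averaged 495 ± 68.8 in the knockout and 578 ± 38.9 in wild type, with overlapping groups and an interval of -0.54 to 0.08 (adjusted p = 0.214).

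The values of Acot1 and Acot2, and of Acaa1a and Acaa1b, are uncertain as values of single genes, because each pair is nearly identical and the way shared reads were assigned is not given in the sources used here. Aligned coding sequences were 95.6% identical for Acot1 and Acot2 and 96.5% for Acaa1a and Acaa1b. Of all stretches of 50 coding bases, 43.6% of those in Acot1 occur in Acot2 and 37.9% of those in Acaa1a in Acaa1b, so a read within them matches both genes. The windows of 60 bases below, on the coding strand of GRCm38, are shown because they can tell the pairs apart; capitals mark the bases that differ, 13 for the Acot pair and 11 for the Acaa1 pair. They lie at chr12:84016942-84017001 (Acot1, plus strand), chr12:83992664-83992723 (Acot2, plus strand), chr9:119346483-119346542 (Acaa1a, plus strand) and chr9:119151842-119151901 (Acaa1b, minus strand).
Acot1: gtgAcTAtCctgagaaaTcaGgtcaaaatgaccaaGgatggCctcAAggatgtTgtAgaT
Acot2: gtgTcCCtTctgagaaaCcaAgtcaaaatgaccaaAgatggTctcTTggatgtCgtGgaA
Acaa1a: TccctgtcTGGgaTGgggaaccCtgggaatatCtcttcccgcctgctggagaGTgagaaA
Acaa1b: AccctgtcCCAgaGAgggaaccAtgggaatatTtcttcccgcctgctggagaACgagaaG

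Both ketone body genes among the 37 fell. Bdh1, which interconverts acetoacetate and 3-hydroxybutyrate, had 1469.7, 1775.6 and 1640.1 normalized reads in the knockout, against 2640.7, 2622.6 and 2303.2 in wild type (change -0.63, SE 0.12, adjusted p = 0.00709). Acat1, the mitochondrial acetoacetyl-CoA thiolase, had 1392.1, 1500.3 and 1517.9 in the knockout, against 2258.6, 1826.6 and 2173.9 in wild type (change -0.50, SE 0.11, adjusted p = 0.0160). Neither gene overlapped between the groups, and Acat1 lost its call without wild type replicate 1 or 3 (adjusted p up to 0.0732). Oxct1, which starts ketone body use, is not among the 37 and was chosen after its values were seen. Oxct1 averaged 2843 ± 688 in the knockout and 1774 ± 458 in wild type, with overlapping groups, and did not pass (change 0.68, adjusted p = 0.0514).

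Among the response genes and regulators, the 2 that passed moved in opposite directions. Pdk4, the pyruvate dehydrogenase kinase that spares glucose when fat is burnt, had 26.2, 29.0 and 7.6 normalized reads in the knockout, against 858.7, 731.4 and 253.2 in wild type. The lowest wild-type library, replicate 3, was still far above every knockout library, and the change was -4.82 (SE 0.59, adjusted p = 0.00178). Creb3l3, a liver and gut transcription factor that works with PPAR alpha, had 376.3, 487.3 and 190.9 in the knockout, against 75.4, 71.4 and 41.9 in wild type. It was the largest rise of the 37, at 559% of its wild-type mean (change 2.41, SE 0.37, adjusted p = 0.00396).

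The other response genes did not pass. Plin2, the lipid droplet coat protein, had 1527.4, 1892.5 and 1603.9 normalized reads in the knockout, against 1381.9, 1347.5 and 1219.4 in wild type (change 0.34, adjusted p = 0.0602), without overlap, and passed without knockout replicate 1 (adjusted p = 0.0437). Angptl4, an inhibitor of lipoprotein lipase and a target of both PPARs and the glucocorticoid receptor, had 40.9, 18.6 and 27.7 in the knockout, against 115.7, 84.1 and 22.8 in wild type (change -1.11, adjusted p = 0.181). Its wild type replicate 3 lay inside the knockout range, and without that library the change was -1.80 (adjusted p = 0.0167). Ppargc1a, the coactivator of mitochondrial biogenesis, had 29.4, 247.3 and 197.6 in the knockout, against 355.6, 305.1 and 338.8 in wild type (change -1.54, adjusted p = 0.129). Knockout replicate 1 was far below the other knockout libraries for this gene, and without it the change was -0.59 (adjusted p = 0.0273).

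**Figure D3:**
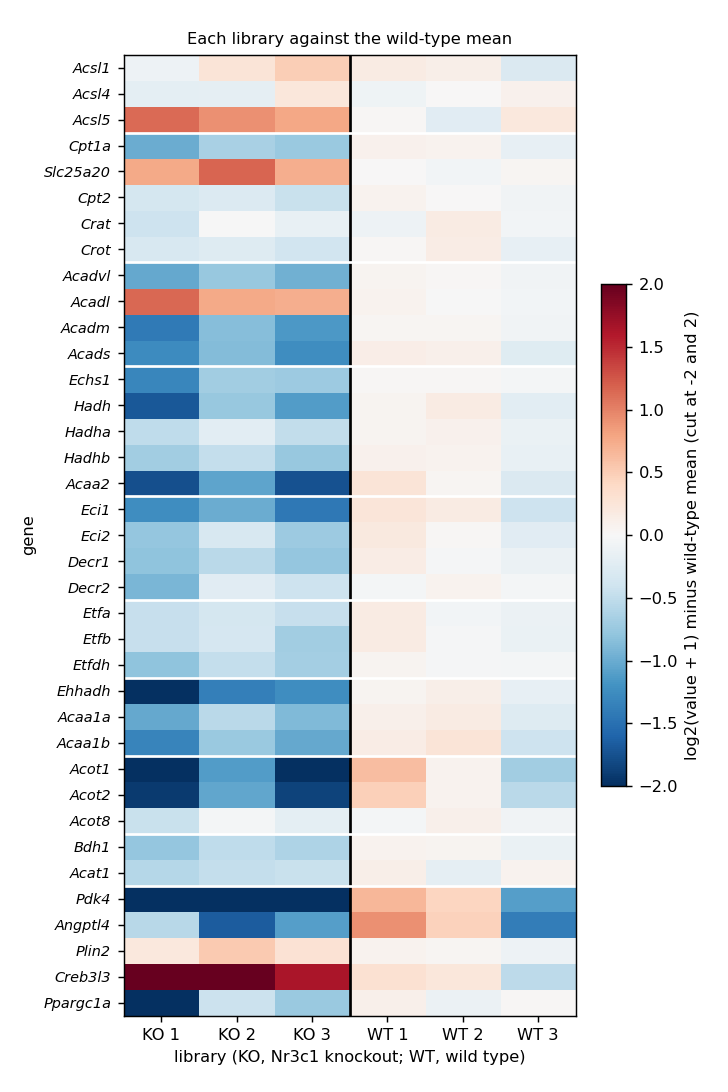
Each library's log2(value + 1) minus the wild-type mean, for the 37 genes in pathway order (white lines part the 10 steps), knockout libraries on the left and wild-type libraries on the right; colours stop at -2 and 2. Blue fills most of the knockout columns, Acsl5, Slc25a20, Acadl and Creb3l3 stand out in red, and among the wild-type columns replicate 3 is the lowest for 31 of the 37 genes.

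Libraries of one group also differed in a shared way. Over the 37 genes, the median distance from the wild-type mean was -0.78, -0.47 and -0.73 log2 units in the knockout libraries, against 0.08, 0.07 and -0.13 in the wild-type libraries. Knockout replicate 1 was the lowest knockout library for 26 of the 37 genes and replicate 2 the highest for 30. Wild type replicate 3 was the lowest wild-type library for 31 of the 37, and for 23 of the 24 that fell. These shifts went with the immune and stromal markers: their mean log2 level was highest in knockout replicate 1 (5.98) and lowest in knockout replicate 2 (4.65), and in wild type it was highest in replicate 3 (4.39). The part of those markers or of Nr3c1 in the differences within groups was not tested. Without wild type replicate 3, 22 of the 37 genes were called lower and 4 higher, where 12.5% of all genes were called lower and 12.6% higher.

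Ratios of related genes within a library do not depend on the scaling, and 8 pairs were compared with two-sided exact permutation tests, whose smallest possible p is 0.1. Relative to Hadha, Ehhadh was lower in the knockout: the log2 ratio of normalized reads averaged -3.76 ± 0.52 in the knockout and -2.53 ± 0.03 in wild type (difference -1.23, exact p = 0.1, adjusted over the 8 pairs 0.2). That ratio was lower in all 3 knockout libraries than in any wild-type library. Eci2 relative to Eci1 averaged 0.33 ± 0.12 in the knockout and -0.29 ± 0.17 in wild type (difference 0.62, exact p = 0.1, adjusted 0.2). Cpt2 relative to Cpt1a averaged -1.25 ± 0.17 in the knockout and -1.68 ± 0.08 in wild type (difference 0.44, exact p = 0.1, adjusted 0.2). Acsl4 relative to Acsl5 averaged -3.48 ± 0.41 in the knockout and -2.49 ± 0.21 in wild type (difference -0.99, exact p = 0.1, adjusted 0.2). Groups overlapped for the other 4 pairs, with differences of -0.22 for Acaa1b to Acaa1a, 0.21 for Acot2 to Acot1, -0.72 for Acsl1 to Acsl5 and 0.19 for Decr2 to Decr1. The Acaa1 and Acot ratios carry the uncertainty of shared reads given above, so their overlap says little about the single genes. No pair could pass a threshold of 0.05 with 3 libraries a group.

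**Figure D4:**
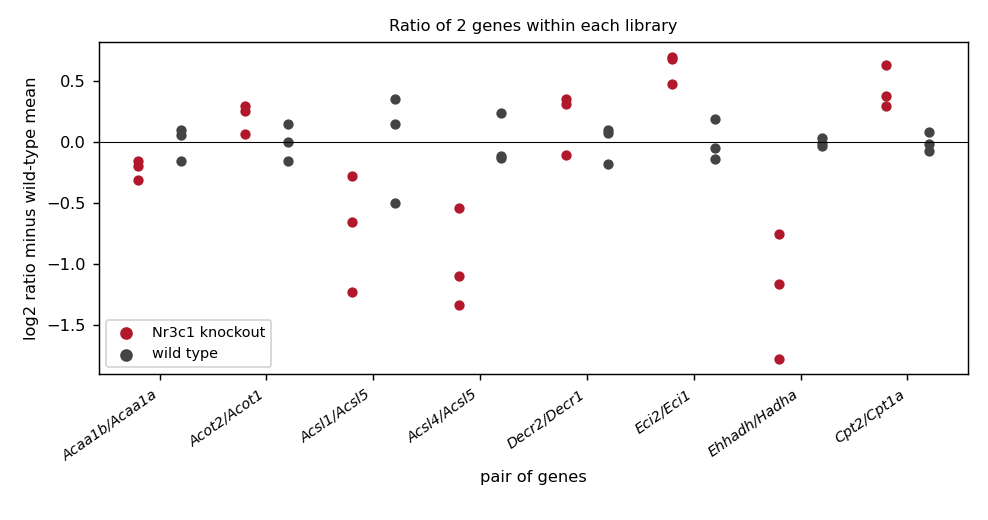
Log2 ratio of 2 genes in each library, minus the wild-type mean of that ratio, for 8 pairs (red, Nr3c1 knockout; grey, wild type; 3 libraries each). The groups are apart for Acsl4/Acsl5, Eci2/Eci1, Ehhadh/Hadha and Cpt2/Cpt1a and overlap for the other 4 pairs.

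Promoters are shown for the gene with the largest fall (Pdk4), for 3 of the 4 that rose (Acadl, Slc25a20 and Creb3l3), for Cpt1a, which moved against its neighbour Slc25a20 in the shuttle, and for Hadhb, whose start faces that of Hadha. Each is a 300-base RefSeq window of GRCm38.p6, on the strand of the gene, from 250 bases before a start site to 50 after it. Capitals mark AGGTCA (the half-site of nuclear receptors such as PPAR alpha), AGAACA (the half-site of the glucocorticoid receptor) and GGGCGG (the GC box), on either strand. The windows lie at chr6:5496229-5496528 (Pdk4, minus strand), chr1:66863260-66863559 (Acadl, minus strand), chr9:108661886-108662185 (Slc25a20, plus strand), chr10:81092542-81092841 (Creb3l3, minus strand), chr19:3323051-3323350 (Cpt1a, plus strand) and chr5:30155003-30155302 (Hadhb, plus strand).
Pdk4: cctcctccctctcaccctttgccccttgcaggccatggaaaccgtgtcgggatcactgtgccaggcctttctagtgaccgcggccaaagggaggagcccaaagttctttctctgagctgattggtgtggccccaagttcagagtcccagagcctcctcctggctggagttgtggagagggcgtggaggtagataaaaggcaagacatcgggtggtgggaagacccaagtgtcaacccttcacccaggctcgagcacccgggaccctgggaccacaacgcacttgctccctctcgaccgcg
Acadl: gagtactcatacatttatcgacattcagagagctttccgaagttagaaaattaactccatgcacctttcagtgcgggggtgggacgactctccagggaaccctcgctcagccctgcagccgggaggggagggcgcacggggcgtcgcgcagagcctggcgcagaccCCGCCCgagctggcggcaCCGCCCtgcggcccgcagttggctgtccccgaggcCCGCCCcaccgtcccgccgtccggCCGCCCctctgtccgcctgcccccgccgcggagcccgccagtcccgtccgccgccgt
Slc25a20: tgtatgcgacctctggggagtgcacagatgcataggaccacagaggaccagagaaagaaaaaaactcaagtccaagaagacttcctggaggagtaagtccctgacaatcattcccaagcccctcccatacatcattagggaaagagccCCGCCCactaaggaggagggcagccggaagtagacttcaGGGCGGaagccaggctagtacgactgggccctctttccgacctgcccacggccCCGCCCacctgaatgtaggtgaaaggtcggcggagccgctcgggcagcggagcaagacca
Creb3l3: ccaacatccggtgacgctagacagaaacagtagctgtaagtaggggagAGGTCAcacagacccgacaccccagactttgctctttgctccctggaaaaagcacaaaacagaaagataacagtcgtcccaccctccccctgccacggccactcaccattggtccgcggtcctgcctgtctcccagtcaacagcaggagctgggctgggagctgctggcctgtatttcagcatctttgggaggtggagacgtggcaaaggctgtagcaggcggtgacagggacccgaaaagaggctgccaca
Cpt1a: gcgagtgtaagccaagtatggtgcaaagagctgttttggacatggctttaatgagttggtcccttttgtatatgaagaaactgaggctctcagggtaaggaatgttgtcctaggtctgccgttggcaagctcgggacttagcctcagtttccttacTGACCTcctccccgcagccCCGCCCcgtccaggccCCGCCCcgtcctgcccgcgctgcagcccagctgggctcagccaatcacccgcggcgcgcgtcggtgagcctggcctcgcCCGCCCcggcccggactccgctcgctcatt
Hadhb: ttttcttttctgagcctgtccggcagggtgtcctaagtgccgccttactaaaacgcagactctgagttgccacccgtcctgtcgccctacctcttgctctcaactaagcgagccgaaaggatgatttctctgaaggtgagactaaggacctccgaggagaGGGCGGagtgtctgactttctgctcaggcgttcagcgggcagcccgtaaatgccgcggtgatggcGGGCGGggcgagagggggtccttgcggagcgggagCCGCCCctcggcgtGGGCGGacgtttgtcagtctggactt

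The Pdk4 window held none of the 3 motifs. Acadl, Slc25a20, Cpt1a and Hadhb each held GC boxes, and Creb3l3 and Cpt1a each held 1 AGGTCA. The printed windows of Creb3l3 and Cpt1a lie inside these genes, which span chr10:81084329-81098872 (minus strand) and chr19:3322326-3385735 (plus strand). A second window of Creb3l3, not printed, covers the first base of that gene at chr10:81098872 and held 2 AGAACA. RefSeq windows were found for 32 of the 37 genes, 35 windows in all, and those of Hadha and Hadhb share 228 bases; Acaa2, Decr1, Crat, Acat1 and Angptl4 had no entry. AGGTCA was in 17.1% of these windows and in 16.3% of all 32851 windows of that length, and AGAACA in 11.4% of them and 19.0% of all. GGGCGG was in 65.7% against 35.7% of all windows, and CCAAT, searched on both strands like the others, in 51.4% against 37.4%. The direct repeat of AGGTCA spaced by 1 base was in 0 of the 35 windows and in 0.0396% of all, TCAAGGTCA (the element of estrogen-related receptors, which contains AGGTCA) in 0 and 0.423%, and the full palindromic glucocorticoid element, which contains AGAACA, in 0 and 0.0091%. A match is a run of letters and not a shown binding site, and its absence concerns these windows alone.

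The rest of the pathway was described from lists of 87 other genes, 76 of which passed the filter: 35 fell and 5 rose (15.4% and 15.0% of all genes), with a median change of -0.51. Other mitochondrial genes fell in 17 of 27 cases and rose in 1, and Acss1 and Pcca were among those with the smallest adjusted p. Acss1, the mitochondrial acetyl-CoA synthetase, averaged 284 ± 89.9 in the knockout and 1508 ± 103 in wild type (change -2.45, adjusted p = 0.000707). Pcca, the alpha subunit of propionyl-CoA carboxylase, averaged 215 ± 44.5 in the knockout and 740.5 ± 46.3 in wild type (change -1.80, adjusted p = 0.000708). Both act on other short-chain acyl groups, acetate and propionate.

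Other peroxisomal genes fell in 8 of 24 cases and rose in 0 with limma (1 higher at an unadjusted p under 0.05, and 0 with edgeR). Limma called 15.4% of all genes tested lower and 15.0% higher. Hsd17b4, the peroxisomal D-bifunctional protein, averaged 575 ± 50.6 in the knockout and 1069 ± 110 in wild type (change -0.89, adjusted p = 0.00253). Ech1, a dienoyl-CoA isomerase, averaged 1348 ± 390 in the knockout and 3423 ± 587 in wild type (change -1.37, adjusted p = 0.00474). Phyh, which starts the breakdown of phytanic acid, averaged 841 ± 268 in the knockout and 2312 ± 405 in wild type (change -1.50, adjusted p = 0.0057).

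Other genes of the PPAR response list, which also holds the receptors and their cofactors, fell in 10 of 25 cases and rose in 4. Of all genes tested, 15.4% were called lower and 15.0% higher, so the share of the list that rose, 16%, was near that of all genes. Those lower were Ppara, Pparg, Rxra, Ppargc1b, Nrip1, Ncor1, Sirt3, Txnip, Pdk2 and Fabp2, and those higher were G0s2, Fabp1, Hilpda and Pdk1. All of these but Ppara, Fabp2 and G0s2 were named after their values were seen. Ppara, the gene of PPAR alpha itself, had 40.9, 78.6 and 66.8 normalized reads in the knockout, against 558.3, 568.1 and 402.5 in wild type (change -3.05, SE 0.26, adjusted p = 0.000604). Fabp2, the intestinal fatty acid binding protein, averaged 1106 ± 332 in the knockout and 5657 ± 560 in wild type (change -2.40, adjusted p = 0.000708). G0s2, an inhibitor of adipose triglyceride lipase, went the other way, with 414.1, 62.1 and 53.5 in the knockout, against 2.1, 3.9 and 1.8 in wild type (adjusted p = 0.00363). In the citric acid cycle and pyruvate dehydrogenase list, 9 of 22 genes fell with limma and 6 with edgeR, and 0 rose with either tool, adjusted or not, with a median change of -0.29. The smallest adjusted p were those of Idh2, the NADP-linked isocitrate dehydrogenase (change -0.91, adjusted p = 0.00317), Suclg2, a succinyl-CoA ligase subunit (change -0.65, adjusted p = 0.00577), and Idh3b, a subunit of the NAD-linked isocitrate dehydrogenase (change -0.44, adjusted p = 0.0179).

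**Figure D5:**
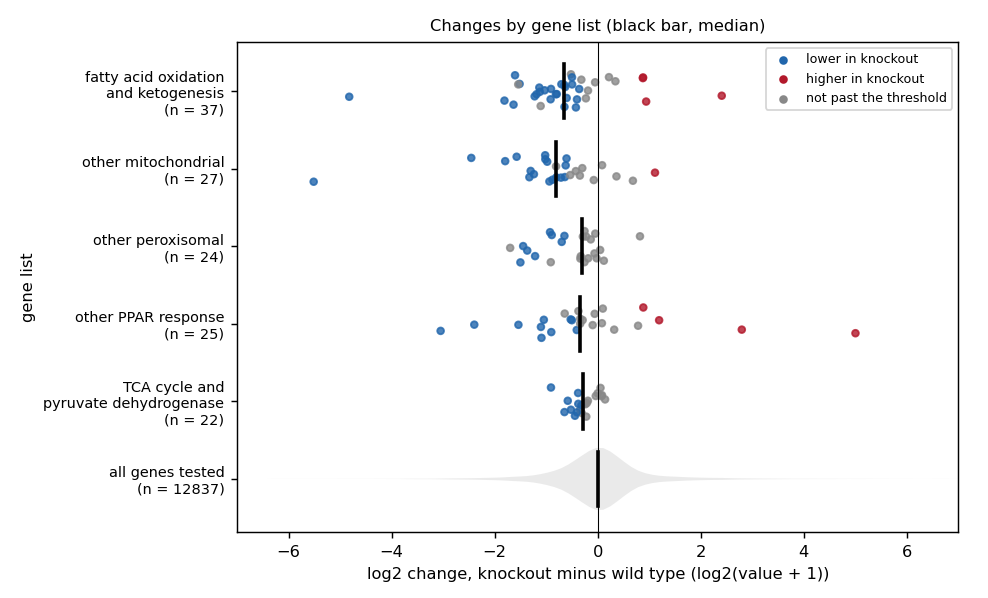
Log2 change, knockout minus wild type, of each tested gene by list (points; blue lower, red higher, grey not past the threshold; black bar, median), above the distribution of all 12837 genes tested. The medians are -0.65 for the 37 genes, -0.29 for the citric acid cycle list and 0.01 for all genes. Those of the other mitochondrial, other peroxisomal and other PPAR response lists are -0.80, -0.31 and -0.34.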

How the data were processed

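RNA of colonic epithelial cells was measured in 6 mouse libraries, 3 knockout and 3 wild type. Per the labels' protocols the TruSeq mRNA libraries were non-stranded, so overlapping and antisense genes can share reads. The deposited values are a normalized signal: the authors' gene counts after division by a size factor for each library. The submitters' processing notes name FastQC, TopHat, DESeq2 and mm10, with no versions. The read counter and the gene annotation behind the counts are not given there. Whole reads came back within 0.001 for 100% of values, 10089313 to 12030844 per library. Symbols from RefSeq for GRCm38.p6, the assembly of mm10, were matched to 23666 of 23725 Entrez rows.

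The 12837 genes that reached 10 normalized reads in 3 or more of the 6 libraries were tested with limma 3.58.1 (R 4.3.3) on log2(value + 1), which understates changes of low genes. Benjamini-Hochberg adjustment was applied at 0.05. On the recovered reads, edgeR 4.0.16 called 3893 genes, against 3910 with limma, and DESeq2 1.42.0 was run too. Levels per kilobase use the longest principal transcript of GENCODE vM21. Named genes are all 37, Nr3c1 and, from each other pathway list and the citric acid cycle list, up to 3 tested genes with the smallest adjusted p; cell type lists are given by their sums and their markers at 0, and a name outside this rule is marked where it stands. One gene picked by the rule is not reported here. The genes and lists were chosen with earlier results of these data known. The labels do not state that each library is a separate mouse, so p-values measure only the spread between these libraries. No 2 libraries of a group agreed within sampling noise (chi-square per degree of freedom 15.0 to 57.5).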

Additional observations from a re-analysis of the deposited data

How the results depend on the processing

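No paired analysis was possible because the labels carry no replicate numbers; those used here follow accession order. Of the 37 genes, 24 were called lower and 4 higher also with pseudocounts of 0.5 and 5, with a minimum of 50 normalized reads, with TMM, with upper-quartile factors, with quantile normalization and with DESeq2, and 23 and 4 with edgeR. Without a filter, 11 were called lower and 3 higher, and all genes called numbered 1662. Other pathway genes were then 19 lower and 0 higher, and Nr3c1 missed the threshold (change -2.03, limma adjusted p = 0.186). That fit took in all 23725 genes, also those at or near 0, which can change both the variance estimates of limma and the adjustment. The part of each in the lost calls was not tested. With the marker covariate 0 were called lower and 0 higher, all genes called numbered 111, other pathway genes 3 lower and 0 higher, and Nr3c1 was at -0.97 (limma adjusted p = 0.774). Crat (0.10), Acot8 (0.094) and Ppargc1a (0.66), none called, changed sign there; the cause was not tested. DESeq2 called 8 other pathway genes higher, against 5 with limma. Acsl4, near 0 and not called, changed sign with quantile normalization (0.014) and ranged from -0.19 to 0.024 on leaving out each library. Leaving out each library gave 16 to 25 of the 37 genes lower and 4 or 5 higher, 1923 to 3607 genes called in all (1923 without wild type replicate 1 and 1960 without replicate 2 of wild type), 26 to 36 other pathway genes lower and 3 to 7 higher, and -2.82 to -1.57 for Nr3c1, whose call held only without wild type replicate 3. In all 6 of these fits 16 of the 24 lowered and 4 of the 4 raised genes were called. Low values limit Acot1, Acot2, Angptl4 and the knockout values of Pdk4, all at most 66.2 normalized reads in every knockout library.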
